A study of Mus musculus with 12 samples.

Results

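The carbonic anhydrases interconvert carbon dioxide and water with bicarbonate and a proton, and in corneal endothelium they are known as partners of the ion transport that keeps the cornea thin and clear. The family holds cytosolic enzymes, a mitochondrial enzyme, enzymes anchored on the outer face of the plasma membrane, and related proteins that have lost the catalytic site. Acetazolamide and related sulfonamides, used to lower the pressure in the eye, inhibit most of the active enzymes. The members described here were taken by gene symbol: *Car2*, *Car3*, *Car4*, *Car5b*, *Car8*, *Car9*, *Car11*, *Car12*, *Car13* and *Car14*. Of these 10 members, 8 had a row among the 15838 genes of the deposited tables, and *Car4* and *Car8* had none. No row was found either for *Car1*, *Car5a*, *Car6*, *Car7*, *Car10* or *Car15*, the other family symbols that were looked up.

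RNA came from corneal endothelial cells (CEC) on Descemet membrane, taken at 10 weeks of age from *Slc4a11*-/- mice (KO) and their *Slc4a11*+/+ littermates (WT) on a C57BL/6 background. The KO allele is a targeted deletion within *Slc4a11* that every cell of the mouse carries, so the corneal endothelium was not the only tissue affected. The 12 libraries were 3 each of KO male, KO female, WT male and WT female, and the labels name no treatment of any group. The labels describe pooled membranes whereas the methods describe the membranes of both eyes taken as a pair, so whether the spread between libraries is that between mice could not be settled.

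The deposited tables give limma log2 fold changes (log2FC) with a moderated t and p for 3 terms, and the mean level over all libraries as the log2 of counts scaled to library size (CPM), with no value per library. Group levels below are therefore estimates from the mean level and the fitted terms and carry no error of their own. Naming an effect as male or female rests on males being the reference sex of the fit, which was assumed as described with the processing. Errors stand with the log2FC as standard errors (SE) or 95% intervals, n = 3 per group throughout, and a gene is called where its Benjamini-Hochberg adjusted p over all 15838 genes is under 0.05. The targeted gene had estimated levels of 3076 CPM in WT males, 865 CPM in KO males, 4681 CPM in WT females and 633 CPM in KO females, and *Slc4a11* fell by 1.83 in males (SE 0.219) on the log2 scale, and in females it fell by 2.89 (SE 0.219). All 10 markers of corneal endothelium had a row, with mean levels from 169 to 7100 CPM. Markers of other tissue moved with genotype over both sexes, where 9.07% of all genes were called. Called lower were 5 of the 7 stromal markers with a row and 3 of the 7 pigment cell markers. So were *Kdr* and *Emcn* among the 6 blood vessel markers. Every estimate in these lists was below 0. *Kdr* had a log2FC of -0.01 in males and -0.95 in females, and *Emcn*, at 0.349 CPM on average, -5.36 and -2.11. The estimated fall was larger in males for 5 of the 6 vessel markers, with *Kdr* the exception. The epithelial marker *Aldh3a1* was called lower by 0.73. It stood at 1065 CPM on average, beside a median of 5.44 CPM over the 8 epithelial markers. Of the 4 muscle markers with a row, the myosins *Myh1* and *Myh2* were called higher, and *Tnnt3* and *Myh11* had estimates below 0. For *Myh1* the log2FC was 2.14 in males and -0.06 in females. Fewer cells of a type and less RNA per cell cannot be told apart in such samples.

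Carbonic anhydrases hold a zinc ion with 3 histidines, and the bases that encode the first pair of them show which members keep the site. The stretch below is 21 coding bases around that pair in each member with values, 5′ to 3′ on the coding strand, from GENCODE M21 transcripts on GRCm38. Capitals mark the codons at the first and second of the 3 positions, and CAC and CAT are the histidine codons.
Car2: cagtttCACtttCACtggggc
Car3: caattcCATcttCACtggggc
Car13: cagttcCATttgCACtggggg
Car5b: cagtttCATtttCATtgggga
Car9: cagttgCATctaCACtgggga
Car12: cagctgCACttgCACtggggg
Car14: cagctcCACctgCACtggggt
Car11: gaactgCGCctgCTAtttgga
Histidine codons stood at 3 of the 3 positions in *Car2*, *Car3*, *Car5b*, *Car9*, *Car12*, *Car13* and *Car14*. *Car11*, a secreted member known to have no carbonic anhydrase activity, had them at 0 of 3. *Car8*, another inactive relative, had them at 2 of 3, but no level of it can be given here. The *Car2* stretch lies at chr3:14895063-14895083 on the forward strand, and the *Car11* stretch at chr7:45702542-45702562 on the forward strand.

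The transcripts of the family were dominated by *Car3*, a cytosolic isoform with low activity that is known from skeletal muscle, fat and liver. Its mean level was 6486 CPM, the 10th highest of the 15838 genes. The estimated levels were 6142 CPM in WT males, 6819 CPM in KO males, 5803 CPM in WT females and 7280 CPM in KO females. *Car3* alone made up between 96.3% and 97.3% of the summed CPM of the 8 members in each group, and between 95.7% and 96.9% when each level was divided by the length of the exons. Markers of fat and muscle were few: none of the 6 adipocyte markers had a row, nor did 5 of the 9 muscle markers, among them *Acta1* and *Ckm*. The fast myosin gene *Myh2* had 15.0 CPM on average, with 31.7 CPM in KO males, and *Myh1* had 2.92 CPM on average. The adipocyte and sarcomere markers were thus unlisted or far below *Car3*, on a CPM scale that is not corrected for length. Liver markers were not looked up, and the source of the *Car3* transcripts was not tested.

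**Figure D1:**
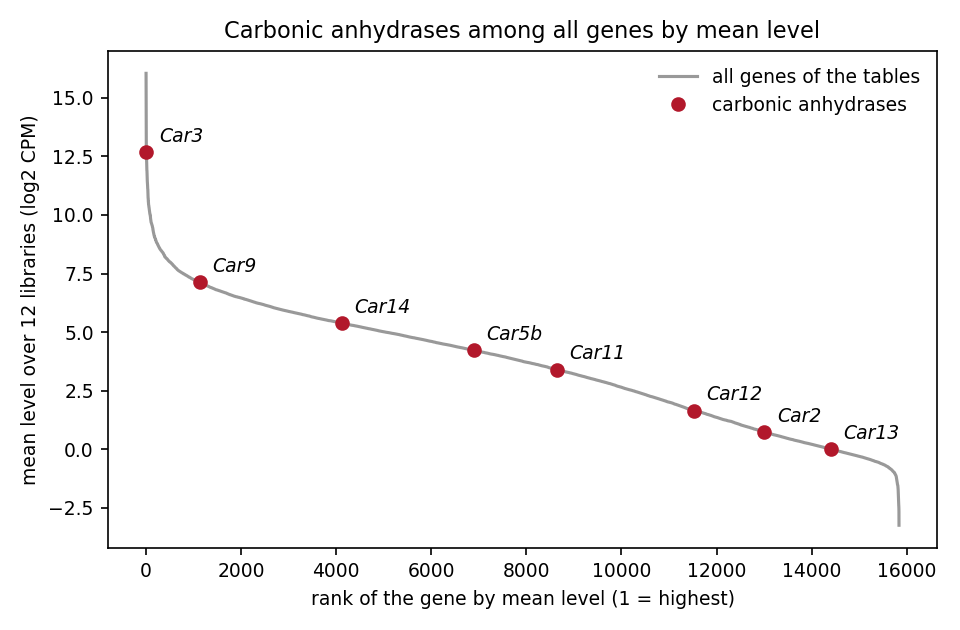
Mean level of every gene over the 12 libraries (log2 CPM, vertical axis) against its rank (horizontal axis, 1 being the highest), with the 8 carbonic anhydrases as red points. Car3 stands at rank 10, Car9 at rank 1131, and Car13 at rank 14408 of 15838.

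*Car9*, a transmembrane enzyme with its catalytic domain outside the cell and a known target of hypoxia-inducible factor, was second with a mean of 139 CPM (rank 1131). *Car14*, another transmembrane enzyme, followed with 41.8 CPM, then the mitochondrial *Car5b* with 18.7 CPM and *Car11* with 10.5 CPM. The remaining members were near the lower end of the tables. *Car12*, the third transmembrane member with values, had 3.15 CPM, and the cytosolic *Car2* had 1.67 CPM. *Car13*, also cytosolic, was lowest at rank 14408. *Car2* is the fast isoform usually named first in red cells and in secretory epithelia, and 82.1% of the genes of the tables had a higher mean level.

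Levels can be compared between genes only per length. Per kilobase of merged exons the mean levels were 2264 CPM for *Car3*, 60.3 for *Car9*, 16.4 for *Car14*, 5.46 for *Car11*, 2.94 for *Car5b*, 0.690 for *Car2*, 0.435 for *Car13* and 0.414 for *Car12*. Each of the first 5 was separated from the next by more than the combined standard deviation of the libraries, which was derived from the fitted errors. With the longest transcript as the length, the gap between *Car11* and *Car5b* was 0.29 on the log2 scale, within their combined standard deviation of 0.32. The gap was widest between *Car3* and *Car9*, at 37.6 times. Below *Car5b*, *Car2* was not separated from *Car13*, nor *Car13* from *Car12*, beyond the spread. The gaps were 0.67 and 0.07 on the log2 scale against combined standard deviations of 0.77 and 0.76. Per kilobase of the longest transcript *Car12* stood above *Car13* by 0.96, beyond their combined standard deviation of 0.76.

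**Figure D2:**
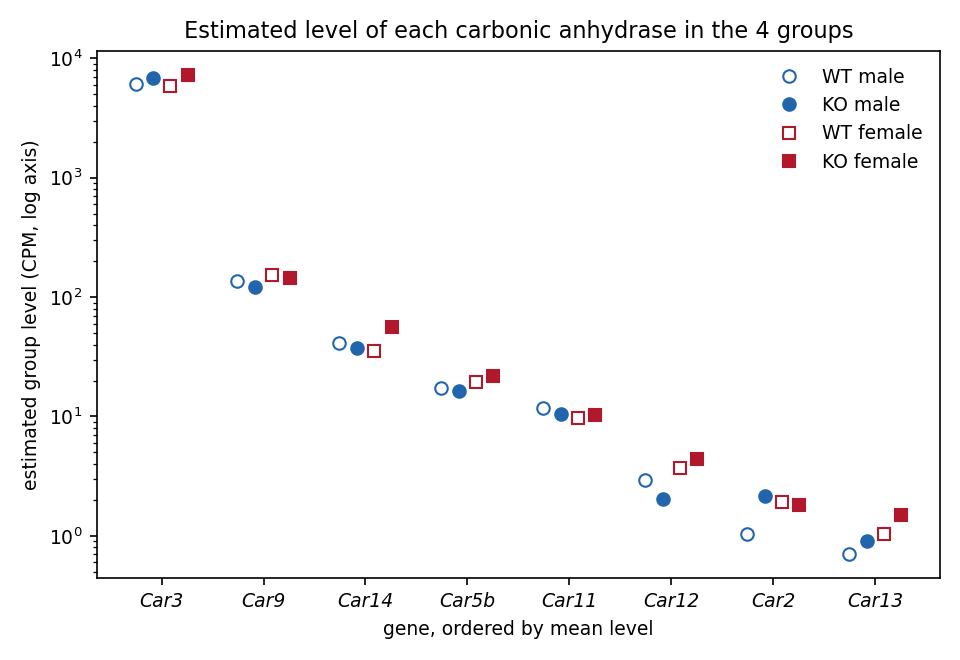
Estimated level of each of the 8 members (CPM, log axis) in WT male, KO male, WT female and KO female, ordered by mean level from left to right. The members keep to separate ranges from Car3 to Car11, and the highest group is at most 2.13 times the lowest for any member.

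*Car9* and *Car14* had a further trait in common in the RefSeq promoter table, which held 5 of the 8 members with values. The letters ACGTG, the core of the hypoxia response element, were found within 250 bases before the start of transcription on either strand in *Car9* and *Car14*, and not in *Car5b*, *Car11* or *Car12*. Of all 32851 promoters in the table, 16.6% held these letters in a window of the same length. The last 30 bases before the RefSeq start are shown on the strand of each gene because the match lies within them, with its reverse complement CACGT in capitals.
Car9: ctatttccgatgCACGTacagcccgtccac
Car14: agcccaggcaccacccccctcctCACGTac
The *Car9* stretch is chr4:43506996-43507025 on the forward strand and the *Car14* stretch chr3:95904686-95904715 on the reverse strand, both in GRCm38.p6, and in GENCODE M21 all 30 bases of the *Car9* stretch and the last 6 bases of the *Car14* stretch already lie inside the gene. A run of letters in a promoter is a description of the sequence and was not tied to any binding measured here.

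In males, the comparison of KO with WT called none of the 8 members by limma, against 5.47% of all genes. At an unadjusted p under 0.05 it held 1 member, against 21.9% of all genes. That member was *Car2*, with estimated levels of 1.04 CPM in WT males and 2.15 CPM in KO males. Its log2FC was 1.05 (SE 0.410, 95% interval 0.17 to 1.93, adjusted p = 0.152 by limma), and a log2FC of about 1.49 would have been needed for a call at its error. The estimate for *Car2* in WT females was 1.92 CPM and in KO females 1.83 CPM, so the WT male group stood below the other groups. The red cell list had a row for only 1 of its 7 markers, *Alas2*, whose levels were 5.08, 3.37, 3.14 and 2.76 CPM in WT males, KO males, WT females and KO females.

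The remaining members had male log2FC values between -0.51 for *Car12* and 0.36 for *Car13*. *Car12* was estimated at 2.92 CPM in WT males and 2.05 CPM in KO males (SE of the log2FC 0.441). *Car13*, a cytosolic enzyme, was at 0.707 and 0.907 CPM (SE 0.514). The interval of *Car12* reached below a 2-fold decrease and that of *Car13* above a 2-fold increase, so changes of that size were not detectable for genes at such levels. For *Car3*, *Car5b*, *Car9*, *Car11* and *Car14* the 95% interval lay within a 2-fold change in either direction. For *Car3* the male log2FC was 0.15 (95% interval -0.40 to 0.70), and for *Car9* it was -0.17 (95% interval -0.46 to 0.13). Over the members, 3 estimates were above 0 and 5 below, with a median of -0.11, and over all genes 47.2% were above 0 with a median of -0.02.

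In females, again none of the 8 members was called, against 1.42% of all genes. The test was a moderated t derived here from the limma terms (the derived t below). At an unadjusted p under 0.05 it held 1 member, against 15.9% of all genes. That member was *Car14*, with estimated levels of 35.5 CPM in WT females and 56.2 CPM in KO females. The log2FC of *Car14* was 0.66 (SE 0.158, adjusted p = 0.0563 by the derived t), a 1.58-fold difference with a 95% interval of 1.25 to 2.01. A log2FC of about 0.69 would have been needed for a call. The call for *Car14* depended on which genes entered the adjustment: among the 8801 genes with a mean of at least 10 CPM the adjusted p was 0.0383. With only the residual degrees of freedom of the 4 groups it was 0.182.

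*Car14* in males was estimated at 41.0 CPM in WT and 37.3 CPM in KO, a log2FC of -0.14 (95% interval -0.48 to 0.21). Thus the KO female group was highest and the other groups lay between 35.5 and 41.0 CPM. The summed level of leukocyte markers was also highest in the KO female group. Of 6 such markers 4 had a row. Their sum was 29.7 CPM in WT males, 16.6 CPM in KO males, 19.3 CPM in WT females and 54.0 CPM in KO females. *Lyz2* alone held 43.4 CPM of the KO female sum, and *Ptprc* and *Cd68* were highest in WT males, at 2.87 and 3.51 CPM. None of these 4 markers was called in males by limma or in females by the derived t, against 5.47% and 1.42% of all genes. At an unadjusted p under 0.05 there were 1 in males and 2 in females, against 21.9% and 15.9% of all genes. All 4 estimates were below 0 in males and above 0 in females. For the interaction 3 had an unadjusted p under 0.05, against 10.2% of all genes, and 0 were called, against 0.543%. *Cd3e* and *Ms4a1* had no row, and the part of leukocytes in the value of *Car14* was not tested. The end of *Car14* overlaps *Aph1a*, a gamma-secretase subunit gene on the opposite strand, by 521 bases, and *Aph1a* had a log2FC of 0.16 in females (SE 0.113).

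For the other members the female estimates ran from -0.08 for *Car9* to 0.54 for *Car13*. *Car3* was at 5803 CPM in WT females and 7280 CPM in KO females, a log2FC of 0.33 (95% interval -0.22 to 0.88). *Car5b*, the mitochondrial enzyme that supplies bicarbonate to carboxylases, was at 19.5 and 21.7 CPM, a log2FC of 0.16 (95% interval -0.24 to 0.55). *Car11* was at 9.78 and 10.2 CPM, and *Car12* at 3.73 and 4.37 CPM. The 95% interval lay within a 2-fold change in either direction for *Car2*, *Car3*, *Car5b*, *Car9*, *Car11* and *Car12*. For the low *Car13* it ran from -0.41 to 1.49. Of the members 6 estimates were above 0, with a median of 0.19, and of all genes 50.8% were above 0 with a median of 0.01.

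**Figure D3:**
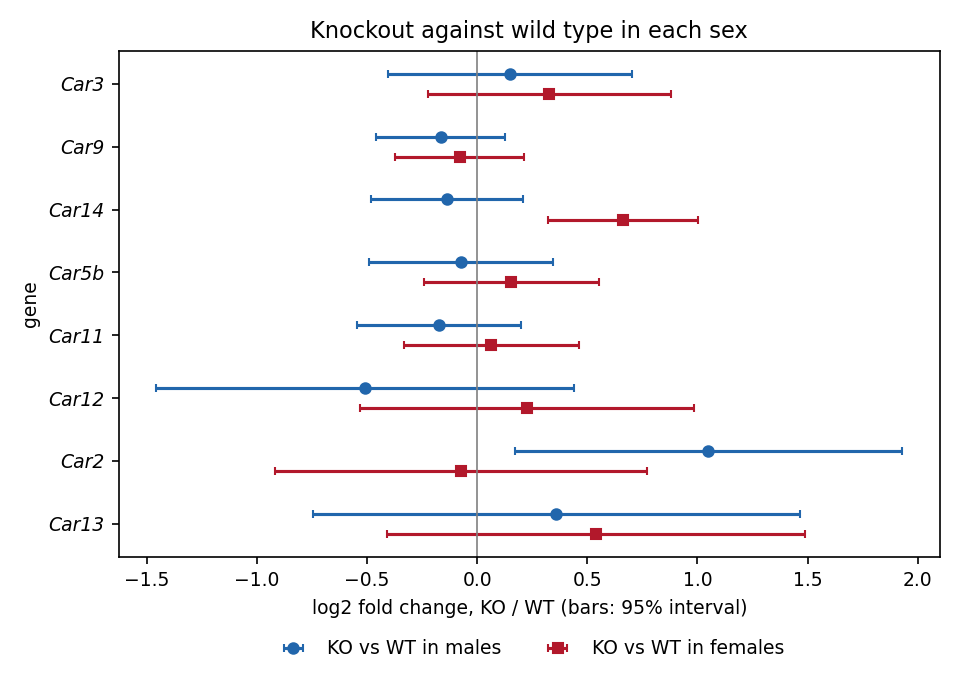
The log2 fold change of KO against WT (horizontal axis) for each of the 8 members, as blue circles in males and red squares in females, with bars for the 95% interval. The interval leaves out 0 for Car2 in males and for Car14 in females, and neither passed the adjusted threshold.

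With both sexes weighted equally, none of the 8 members was called by the derived t, against 9.07% of all genes. At an unadjusted p under 0.05 there was 1, against 27.9% of all genes. It was again *Car14*, with a mean log2FC of 0.26 (SE 0.113, adjusted p = 0.148). For each of the 8 members the SE was smaller than that of the effect in either sex. The estimates were near 0 for *Car9* at -0.12 (95% interval -0.33 to 0.08), *Car5b* at 0.04 (95% interval -0.25 to 0.33) and *Car11* at -0.05 (95% interval -0.33 to 0.22). *Car3* was at 0.24 (95% interval -0.15 to 0.63), so a rise of its transcript by more than 1.55-fold lay outside the interval. The median size of the change was 0.19 over the members and 0.20 over all genes.

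Whether the KO effect differed between the sexes is the interaction, given as the effect in females minus that in males. None of the 8 members was called by limma, against 0.543% of all genes, and 1 had an unadjusted p under 0.05, against 10.2% of all genes. For *Car14* the interaction was 0.80 (SE 0.226, 95% interval 0.32 to 1.29, adjusted p = 0.154). The estimated female level of *Car14* was below the male level in WT by 0.21 on the log2 scale and above it in KO by 0.59, each with an approximate SE of 0.159. *Car2* had the only estimate below 0, at -1.12 (SE 0.568, 95% interval -2.34 to 0.10, adjusted p = 0.549). The other 6 members lay between 0.09 for *Car9* and 0.73 for *Car12*, and for the least precise of these, *Car13*, the interval ran from -1.27 to 1.64. Over all genes 52.6% of the interaction estimates were above 0.

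Between the sexes over both genotypes, none of the 8 members was called by limma, against 0.0316% of all genes, and 2 had an unadjusted p under 0.05, against 3.74% of all genes. These were *Car12*, higher in females by 0.72 (SE 0.273), and *Car9*, higher in females by 0.22 (SE 0.100), both with an adjusted p of 0.882. For *Car12* the female groups were at 3.73 CPM in WT and 4.37 CPM in KO, above both male groups at 2.92 and 2.05 CPM. For *Car9* the female groups were at 154 CPM in WT and 146 CPM in KO, and the male groups at 136 and 122 CPM. *Car5b*, which lies on chromosome X, was higher in females by 0.28 (SE 0.134, adjusted p = 0.882). Of the members, only *Car11* had an estimate below 0, at -0.15 (SE 0.126).

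**Figure D4:**
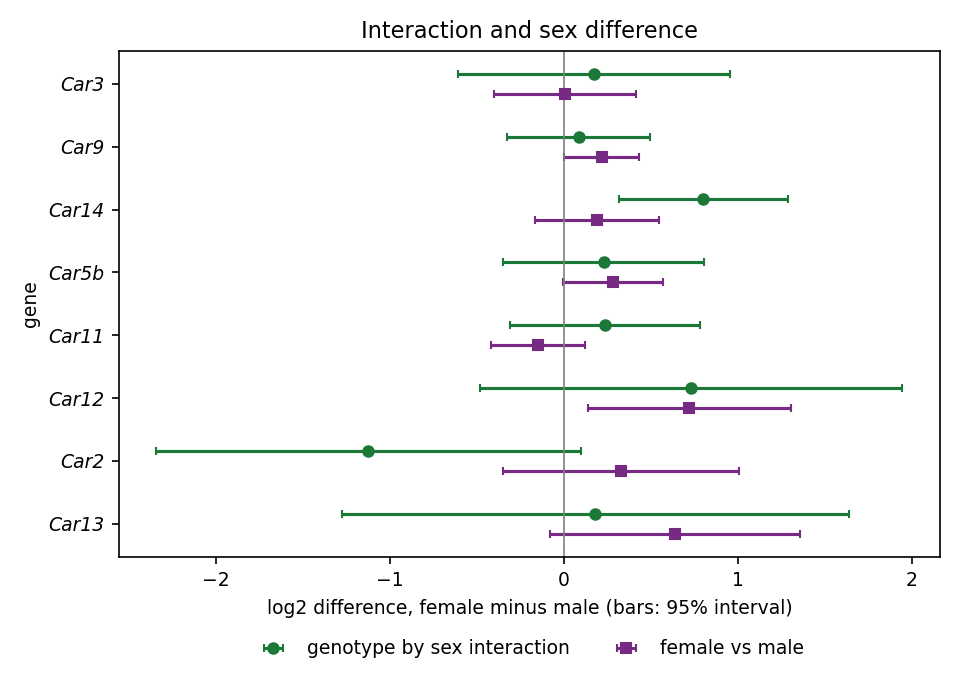
The genotype by sex interaction (green circles, female effect minus male effect) and the female minus male difference over both genotypes (purple squares) for each of the 8 members, on the log2 scale with bars for the 95% interval. Car14 has an interaction interval above 0, and Car12 and Car9 have sex intervals above 0. None of these passed the adjusted threshold.

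The precision behind these values differed among the members. *Car3* had the widest errors for its level: the SE of its interaction was 0.364, against a median of 0.169 for the 500 genes nearest in mean level, and 96.8% of those genes had a smaller SE. A high level thus did not come with a small spread between libraries for *Car3*. *Car14* and *Car5b* also lay above the median of their neighbours, by 1.30 and 1.28 times, whereas *Car11*, *Car2* and *Car13* lay below, at 0.978, 0.892 and 0.867 times. The smallest log2FC that could have been called in males ran from 0.50 for *Car9* to 1.87 for *Car13*, and in females from 0.59 to 1.92 for the same genes.

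**Figure D5:**
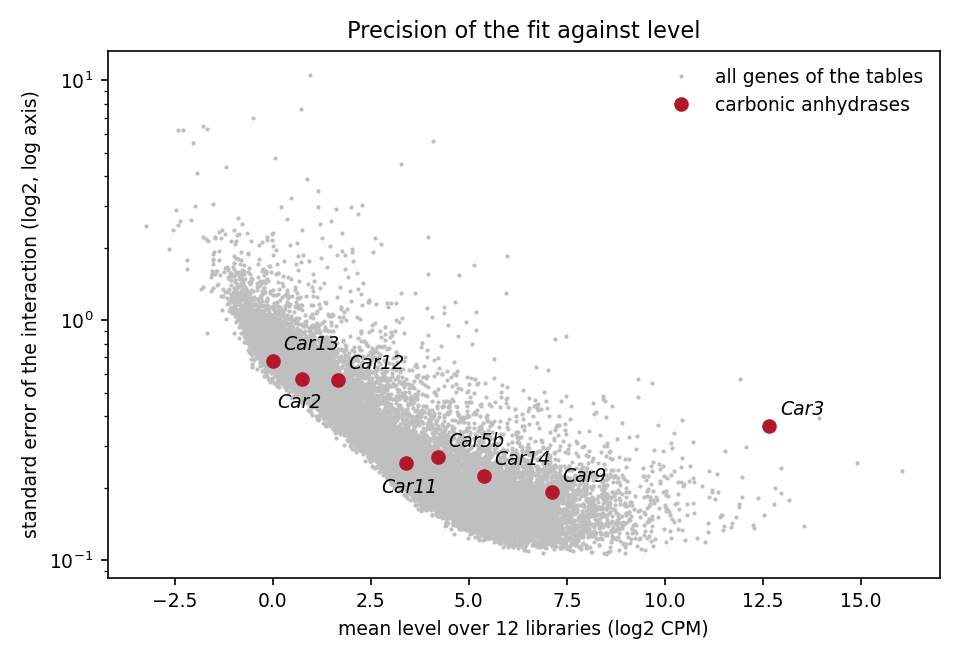
Standard error of the interaction (log2 units, log axis) against the mean level over the 12 libraries (log2 CPM) for all 15838 genes in grey and the 8 members in red. Car3 lies far to the right with an SE of 0.364, above most genes of similar level.

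Carbonic anhydrases work beside bicarbonate, proton and lactate carriers. Of a list of 30 such partners 22 had a row. In males 1 was called higher and 1 lower, against 5.47% of all genes called, and in females 1 and 1, against 1.42%. Over both sexes 3 were called higher and 2 lower, against 9.07% of all genes called. The gene that rose in males was *Bsg*, the chaperone of the lactate carriers, from 5502 to 10437 CPM (log2FC 0.92, SE 0.171, adjusted p = 0.00845). In females the gene that rose was *Slc9a3r1*, a scaffold of transporters at the membrane, from 22.2 to 47.4 CPM (log2FC 1.09, SE 0.150, adjusted p = 0.00250). *Slc4a11* itself was the gene called lower in each sex. Over both sexes *Slc16a1*, the lactate and proton carrier MCT1, was also called higher at 0.49 (SE 0.131, adjusted p = 0.0339), and *Slc16a3*, a carrier known for lactate export, was called lower by 0.62 (SE 0.169, adjusted p = 0.0382). The median over the list was -0.21 in males and 0.06 in females, beside -0.02 and 0.01 over all genes. The bicarbonate cotransporter *Slc4a4*, at 2061 CPM on average, had a log2FC of -0.27 in males (SE 0.084, adjusted p = 0.0752) and -0.08 in females (SE 0.084).

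*Car9* is a textbook member of the transcriptional response to low oxygen, and all 28 genes of a hypoxia response list had a row. In males 3 of them were called lower by limma and none higher, against 5.47% of all genes called in either direction. They were *Ndrg1*, lower by 1.86 (SE 0.427, adjusted p = 0.0244), *Vegfa* by 1.46 (SE 0.333, adjusted p = 0.0239) and *Mxi1* by 0.75 (SE 0.163, adjusted p = 0.0183). Of the 28 male estimates 23 were below 0 and 5 above, and over all genes 47.2% were above 0. In females none was called by the derived t, against 1.42% of all genes, with 7 at an unadjusted p under 0.05, against 15.9% of all genes. Over both sexes *Ndrg1*, *Vegfa* and *P4ha2* were called lower and *Hif1a* higher, against 9.07% of all genes called. *Ndrg1* is a stress-induced protein, *Vegfa* the angiogenic growth factor, *Mxi1* an antagonist of Myc, *P4ha2* a collagen prolyl hydroxylase and *Hif1a* the oxygen-labile subunit of the factor. *Car9* itself was estimated at 136 and 122 CPM in WT and KO males and at 154 and 146 CPM in females. The median of the list was -0.22 in males and 0.13 in females. Of the 28 interaction estimates 26 were above 0, with a median of 0.43, and over all genes 52.6% were above 0 with a median of 0.02. None of the 28 interactions was called by limma, against 0.543% of all genes, and 8 had an unadjusted p under 0.05, against 10.2%. *Car9* had an interaction of 0.09 and *Car14* one of 0.80.

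*Car8* is known to bind the inositol trisphosphate receptor *Itpr1*, and although *Car8* had no row, all 3 receptor genes did. *Itpr1* was called higher in KO males, from 996 to 1281 CPM (log2FC 0.36, SE 0.087, adjusted p = 0.0291), and had a log2FC of -0.09 in females (SE 0.087). *Itpr3* was called higher in KO females, from 360 to 469 CPM (log2FC 0.38, SE 0.087, adjusted p = 0.0442). *Itpr2* was called lower over both sexes, by 0.24 (SE 0.066, adjusted p = 0.0424). Of all genes 5.47% were called in males, 1.42% in females and 9.07% over both sexes. For neither *Itpr1* nor *Itpr3* was the interaction called, with adjusted p-values of 0.140 and 0.145. Of 12 genes for bicarbonate-using enzymes and their partners in cytosol and mitochondria, listed for *Car5b*, 11 had a row. None was called in males or in females, and 1 was called over both sexes, against 9.07% of all genes. That gene was *Acacb*, an acetyl-CoA carboxylase, lower by 0.54 (SE 0.143, adjusted p = 0.0330 by the derived t).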

How the data were processed

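The 3 deposited tables hold the results of the authors' own comparisons for genotype, sex and their interaction, and they were used because the levels and errors of the members stand in them alone. Per the labels and the methods of the study, paired-end reads of stranded total RNA were aligned to GRCm38 with HISAT2, converted to CPM with TMM normalization, and fitted with limma and voom weights. The counter, its strand setting and the annotation release are not given in the sources used here. The deposited log2 fold changes and mean levels are on the log2 scale, the deposited moderated t is a score, and each deposited p-value stands beside one adjusted by the Benjamini-Hochberg method. Columns of other per-sample values numbered 0, and the depth per library is unknown, so that no counting interval is given.

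From these, the SE was taken as the log2FC divided by t. The genotype term was taken to be the KO minus WT difference of males, the interaction as female minus male effect, and sex as female minus male. The ratio of interaction to genotype SE (median 1.42) arises for a single-sex term whichever sex it is, so it cannot show which. The choice of males rests on the group levels the study plots and was not tested further. Adding the interaction to the genotype term gives the female effect, with a squared SE equal to the interaction's squared SE less that of the genotype term. The mean effect is the average of both, and its SE follows from that of the interaction. Degrees of freedom implied by t and p were 13.8 (14.6 for sex, which comes from another fit). Group levels mix both fits. A difference between the sexes within a genotype has an approximate SE from the interaction. P-values measure the spread between libraries, and were adjusted over all 15838 genes. The derivation was run on simulated data with limma 3.58.1 in R 4.3.3, where the derived female and mean effects equalled a direct fit. That equality follows from the algebra of such a fit. Males were set as the reference there, so the simulation could not test which sex the deposited genotype term refers to.

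The 10 members, the partner, hypoxia, receptor and enzyme lists and the markers were chosen with earlier results of these data known. All members are named, with *Slc4a11* and, of each list, the called genes by smallest p (at most 3 in each direction) or those tied by role to a member. *Slc4a4*, *Aph1a*, *Alas2*, *Lyz2*, *Ptprc*, *Cd68*, *Tnnt3* and *Myh11* were named in addition, after their values were seen. The summed leukocyte level was also set beside *Car14* after its values were seen. Positions, exon lengths and coding sequences came from GENCODE M21 (GRCm38), coding sequences being aligned as translations with MAFFT 7.526, and promoters from RefSeq (GRCm38.p6, 6 of 10 members matched). Python 3.11.15, SciPy 1.17.1 and statsmodels 0.14.6 were used. Alternatives were other filters, adjustments, degrees of freedom, SEs and transcript lengths.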

Additional observations from a re-analysis of the deposited data

How the results depend on the processing

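Of 33 recomputed counts of called members, 32 stayed at 0. The exception was KO against WT in females among the 8801 genes with a mean of at least 10 CPM, where the count was 1 (*Car14*, adjusted p 0.0383, against 0.0563 over all genes). Its adjusted p ranged up to 1 with the Holm adjustment. Of 204 recomputed adjusted p-values of single members, 203 stayed on their side of the threshold. Every alternative reused the same log2FC, so no direction could turn. The added fold threshold and the stricter adjustments could only leave a count of 0 at 0, so those settings tested nothing here. Over all genes the calls were 866 in males, 225 in females, 86 for the interaction, 1437 for the mean effect and 5 for sex. Under the alternatives they ran from 46 to 877, from 26 to 299, from 0 to 118, from 72 to 1394 and from 0 to 7. With residual degrees of freedom only, 32 were called in females and 324 for the mean effect. Per kilobase of the longest transcript, 6 of 8 levels moved by more than the spread of the libraries. *Car12* and *Car13* changed places at the lower end of the order, with a gap of 0.96 beyond their combined standard deviation of 0.76. The gap of *Car11* to *Car5b* fell within their combined standard deviation (0.29 against 0.32 on the log2 scale). Libraries could not be left out in turn, and no paired analysis was possible because the tables hold no values per library and the labels give no shared replicate numbers. Depth could not be assessed, and in males the intervals of *Car2*, *Car12* and *Car13*, all under 4 CPM on average, allow changes beyond 2-fold.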

Other observations

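Genes within 60 kb of a member were looked at after the values of the members, and those named here were chosen after their values were seen. Of 29 such neighbours with a row, 3 were called by limma in males, against 5.47% of all genes. By the derived t 0 were called in females, against 1.42%. In females 4 had an unadjusted p under 0.05, against 15.9% of all genes. For the interaction 2 were called, against 0.543% of all genes. *Dbp*, a clock-controlled transcription factor, lies 406 bases from *Car11* on the same strand and fell by 1.32 in males (SE 0.210, adjusted p = 0.00347), with an interaction of 1.54 (SE 0.292, adjusted p = 0.0336), whereas *Car11* had a male log2FC of -0.17 (SE 0.173). *Ciart*, a repressor of the clock, lies 15517 bases from *Car14* and fell by 1.91 in males (SE 0.379, adjusted p = 0.0116), beside a male log2FC of -0.14 for *Car14* (SE 0.160). *Fut2*, a fucosyltransferase, lies 33449 bases from *Car11* and had an interaction of -2.27 (SE 0.432, adjusted p = 0.0336). *Creb3*, 48603 bases from *Car9*, was called higher in males at 0.38 (SE 0.102, adjusted p = 0.0479). Neither *Car9*, *Car11* nor *Car14* was called in these comparisons, and a difference between a member and its neighbour was not tested.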
